A study of Rattus norvegicus with 42 samples.

Results

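The aminotransferase genes Tat, Got1, Got2, Gpt, Gpt2, Agxt, Agxt2 and Oat, with the related Etnppl, were followed through glucocorticoid receptor (GR) binding, transcribing RNA polymerase II and RNA in rat liver. These 9 genes were found by symbol among the 26426 genes of the polymerase table, which holds 20 of its 60999 regions for them, and by gene ID among the 22929 genes of the RNA count table. Of the 3981 GR regions, 15 had their centre within 50 kb of a transcription start site (TSS) of one of the 9. The members were chosen by enzyme family with results of these data known, in which Etnppl stood out for its polymerase occupancy at the pulse peak and Got1 for its change in occupancy over time. The occupancy values of these 2 genes, and of Tat, which is named with them, are therefore given as a description, without p-values, and where limma's calls for them are counted beside the background nothing is supported by them.

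An aminotransferase moves an amino group from an amino acid to a keto acid with the help of pyridoxal phosphate, the active form of vitamin B6. In the liver these enzymes feed the carbon of amino acids into glucose production and pass their nitrogen towards urea. Tyrosine aminotransferase (Tat) starts the breakdown of tyrosine and is a classic glucocorticoid-induced liver gene. Got1 and Got2 are the cytosolic and mitochondrial aspartate aminotransferases of the malate-aspartate shuttle, and Gpt and Gpt2 are the alanine aminotransferases. Agxt and Agxt2 use alanine to remove glyoxylate, Oat converts ornithine towards glutamate and proline, and Etnppl belongs to the same enzyme family by sequence but splits phosphoethanolamine.

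All animals were adrenalectomised male Sprague Dawley rats, whose age is not given in the sources used here, and all had received dexamethasone at surgery and corticosterone in their drinking water until a washout before the infusion. Corticosterone (CORT) or vehicle (VEH) was infused intravenously for 3 h, either in hourly pulses of 20 min at 1 ml/h (PULS) or constantly at 0.333 ml/h (CONS), with the dose matched. ChIP for GR and for polymerase phosphorylated at serine 2 of its tail (pSer2 Pol2, the elongating form) was done on PEAK_140 (the end of the third pulse), NADIR_180 (the trough that follows it), CONS_140 and CONS_180, with 2 libraries a group, each of pooled chromatin from 6 rats. VEH for ChIP was 1 pulsatile vehicle library at 140 min and 1 at 180 min, treated as a group of 2, and every VEH comparison of an assay shares them. RNA was sequenced at 180 min in 3 libraries each of PULS_CORT, PULS_VEH, CONS_CORT and CONS_VEH. The sample titles carry numbers whose series partly follow the groups, and what these numbers stand for is not given. Where they follow the groups, group and number series cannot be told apart. Totals over the tables were 2051977 to 6715803 tags for GR, 4938473 to 9326927 tags for pSer2 Pol2 and 3956379 to 7777219 reads for RNA. Hepatocyte markers were present in every RNA library, with a summed level of 102000 to 152000 CPM (reads scaled to a common library size) for 6 genes. Kupffer cell markers summed to 235.0 to 429.0 CPM, endothelial markers to 225.0 to 328.0, stellate and fibroblast markers to 354.0 to 567.0, cholangiocyte markers to 7.57 to 14.6 and lymphocyte and neutrophil markers to 0.0 to 2.87, and Cd5l, Krt19 and Mpo were at 0 reads. Markers tested were 5 of 6 for Kupffer cells, 3 of 4 for endothelial cells, 2 of 4 for cholangiocytes and 2 of 5 for lymphocytes and neutrophils. Stellate and fibroblast markers were at 354.0 to 387.0 CPM in CONS_CORT and 391.0 to 494.0 in CONS_VEH, and their part in the results was not tested. This sum mostly follows Col3a1, at 1374 to 3539 reads, beside 117 to 304 for Colec11 and fewer for the others. In bulk liver, fewer cells of a type and less RNA per cell cannot be told apart.

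Before the values, the letters at the GR regions are shown, since GR binds DNA directly at the glucocorticoid response element, an imperfect palindrome written here as AGAACA, 3 bases of any kind and TGTTCT. The study's motif search around region centres could be read here for 7 of the 15 regions, and 4 of these 7 had a response element match. The share of all GR regions with such a match was not counted here, so nothing particular to these genes is read from that count. The matches are written in lower case along the plus strand of the rn6 assembly, with the letters shared with the palindrome in capitals.
Got1, region 414 bases upstream of the TSS: tGgACAcgcTGTaCc
Gpt2, region 6250 bases upstream: gGAACAgatTGTcCT
Gpt2, region 928 bases downstream, in intron 1: gGAACAtgcaGT
Etnppl, region 42951 bases downstream: ACActcTGTcCT
Of the letters that the palindrome fixes, the Got1 site shared 8 of 12, the upstream Gpt2 site 10 of 12, the intronic Gpt2 site 7 of 9 and the Etnppl site 8 of 9, the last 2 being matches to part of the palindrome. The sites lay 27 to 138 bases from the centres of their regions. The Tat region 3680 bases upstream had no response element match in the search but had one for HNF4A, a hepatocyte transcription factor, shown with no letters marked.
Tat, region 3680 bases upstream, HNF4A match: gatcaaagagca
A match of letters is a description and does not show which protein was bound there.

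Got1 had its GR region at the promoter, chr1:263269863-263270488 in rn6, which covers 101 to 726 bases upstream of the TSS. The RefSeq sequence of the 250 bases before the Got1 start, from the GRCr8 assembly at chr1:252329872-252330121 on the minus strand, is shown because it overlaps that stretch by distance from the start. It covers the near part only, does not reach the region's centre 414 bases upstream, and does not hold the Got1 response element match shown above. Capitals mark CCAAT or its reverse complement ATTGG, a motif searched for after the sequence had been seen.
Got1 promoter: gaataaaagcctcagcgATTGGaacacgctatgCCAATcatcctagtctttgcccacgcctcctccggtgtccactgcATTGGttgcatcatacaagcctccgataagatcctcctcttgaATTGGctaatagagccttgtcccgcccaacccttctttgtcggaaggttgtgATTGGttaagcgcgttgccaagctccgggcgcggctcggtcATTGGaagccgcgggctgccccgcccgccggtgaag
It held 6 copies on the 2 strands together. In the 250 bases before the start of 33469 RefSeq promoters, at least 1 copy was in 11385 and at least 5 copies were in 0.179%, and 4 of the 8 members with a promoter in that table had 1 or more. The half-site AGAACA or its reverse complement TGTTCT was in 17.5% of these promoters and in 2 of the 8, and the full palindrome was in 0.012% and in 0 of the 8. The Got1 and Tat promoters held 0 half-sites. Each full palindrome also counts as half-sites.

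At 11 of the 15 regions (55.0% of all regions) GR was higher in every library of PEAK_140, CONS_140 and CONS_180 than in every library of VEH and NADIR_180 on the scale the authors deposited, while other scalings turned the order for part of the regions, as counted further on. The 4 others were the Tat region in intron 1, both Got2 regions and the upstream Gpt2 region. The regions were merged from peaks called mostly in PEAK_140, CONS_140 and CONS_180, so this order was favoured by their choice and is a description. Of the 9 genes, 6 had at least 1 region within 50 kb, beside 4457 of all 26426 genes (16.9%), and Tat had 6 regions, a number reached by 71 genes (0.269%). Polymerase tags were found for 16568 of the 26426, so this background includes genes without signal in these livers. The members were also chosen with earlier results known, and nothing is read from the excess. Etnppl had 3 regions, Gpt2 and Got2 had 2 each, and Got1 and Gpt had 1 each, while Agxt, Agxt2 and Oat had none. The outermost region inside the limit was that of Etnppl at 42951 bases, and the first outside was one of Got2 at 52706 bases. The VEH libraries read 0.70 and -0.82 at that Got2 region, and the PEAK_140 libraries 4.06 and 3.70.

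At the Got1 promoter, GR read 3.43 and 3.17 in VEH, 7.11 and 7.93 in PEAK_140, 4.56 and 3.91 in NADIR_180, 8.20 and 8.11 in CONS_140 and 7.16 and 7.35 in CONS_180 (log2 values). This was the highest of the 15 regions in all 6 libraries of PEAK_140, CONS_140 and CONS_180, and the NADIR_180 libraries lay between VEH and the rest.

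Tat had regions 2488, 3680, 5434 and 7273 bases upstream of its TSS, 1 in intron 1 and 1 at 11529 bases downstream, near the end of the gene. At 2488 bases upstream the VEH libraries read 0.72 and -0.73, PEAK_140 6.34 and 6.13, NADIR_180 -0.46 and -0.29, CONS_140 6.41 and 6.07, and CONS_180 5.72 and 5.62. The NADIR_180 libraries were thus within the range of VEH there. At 5434 bases upstream NADIR_180 read 2.68 and 2.91, above the VEH values of -0.43 and -0.64 and below PEAK_140 at 6.19 and 5.81. The region in intron 1, 942 bases downstream, had replicates that disagreed, with 5.73 and -1.28 in CONS_140 and 2.80 and -1.34 in VEH, and it was called in none of the 4 comparisons with VEH.

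The 3 Etnppl regions lay 18428 bases downstream of the TSS, in intron 12, and at 36876 and 42951 bases. In intron 12 the VEH libraries read -0.41 and -0.62, PEAK_140 6.22 and 6.14, NADIR_180 2.03 and 3.37, CONS_140 5.88 and 5.92, and CONS_180 5.77 and 5.70. The outermost region read 4.13 and 4.12 in VEH, 6.16 and 6.09 in PEAK_140, 5.05 and 5.06 in NADIR_180, 5.31 and 5.37 in CONS_140 and 5.33 and 5.82 in CONS_180. It was the single region of the 15 with a peak in the VEH peak list. The Got1 promoter also had signal in VEH, at 3.43 and 3.17. What such signal in VEH stands for was not tested.

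For the alanine aminotransferases, the Gpt promoter region 588 bases upstream read -0.55 and -0.75 in VEH, 5.69 and 5.55 in PEAK_140, 2.00 and -0.31 in NADIR_180, 6.09 and 5.33 in CONS_140, and 5.54 and 5.56 in CONS_180. The Gpt2 region in intron 1 read 0.76 and -0.69 in VEH, 4.86 and 4.70 in PEAK_140, 2.91 and 2.61 in NADIR_180, 5.76 and 4.55 in CONS_140, and 4.10 and 4.48 in CONS_180. At the Gpt region the second NADIR_180 library was close to VEH, and at the Gpt2 region both NADIR_180 libraries were clear of it. The 2 Got2 regions, both in intron 1, were weaker. The one 2218 bases downstream read 3.48 and 3.52 in PEAK_140 and -1.42 and 1.01 in CONS_140, and had a peak in PEAK_140 alone among the peak lists. The one 1360 bases downstream read 1.47 and 1.70 in PEAK_140 and 3.50 and 2.88 in CONS_180, and had a peak in CONS_180 alone.

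**Figure D1:**
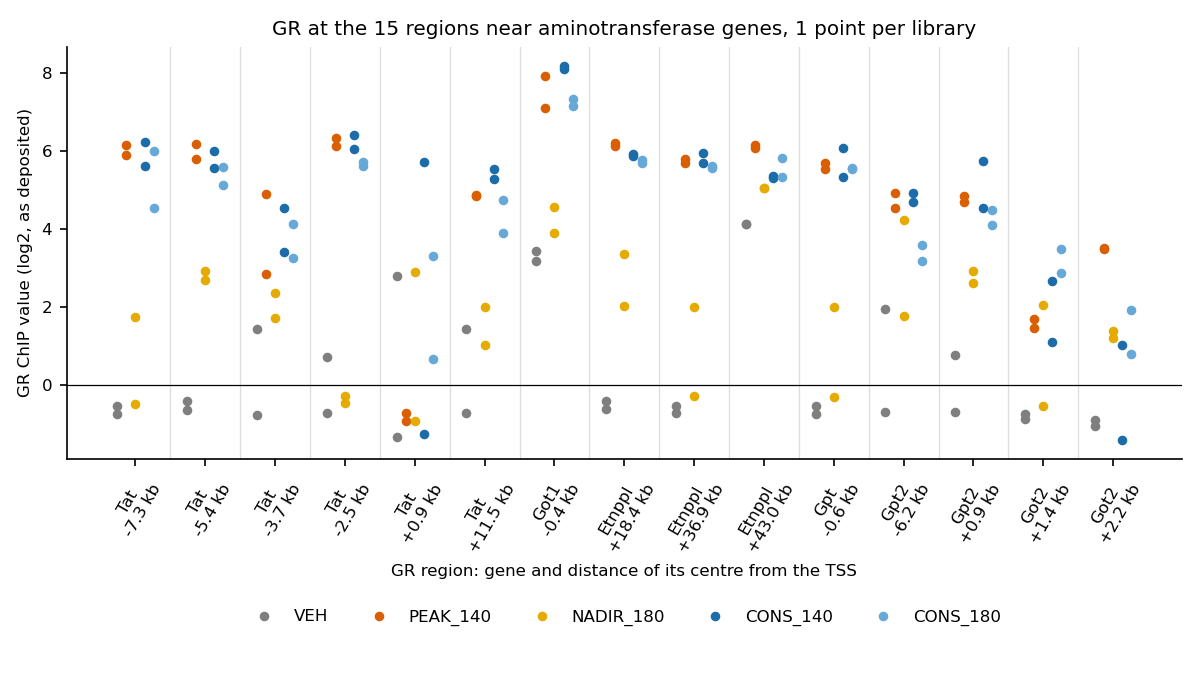
GR ChIP values (log2, as deposited; vertical axis) at the 15 regions within 50 kb of an aminotransferase TSS, ordered by gene and distance, with 1 point for each of the 10 libraries coloured by group. The Got1 promoter reads 7.11 to 8.20 in the 6 libraries of PEAK_140, CONS_140 and CONS_180, NADIR_180 is close to VEH at the Tat region 2.5 kb upstream, and the height over VEH depends on the scaling, since with libraries centred on their medians 7 of 15 regions are higher in PEAK_140.

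A region was called changed at more than 1.5-fold and an adjusted p below 0.05. Against VEH, 14 of the 15 regions were called higher at PEAK_140 (78.6% of all regions), 13 at CONS_140 (64.7%), 14 at CONS_180 (67.9%) and 3 at NADIR_180 (7.44%), the last being the Tat region 5434 bases upstream, the intronic Gpt2 region and the Etnppl region in intron 12. At NADIR_180 limma called 0 of the 15 with only the 4 libraries compared, with libraries centred or after quantile normalization, and 6 without NADIR_180 replicate 2. PEAK_140 was called higher than NADIR_180 at 10 of the 15 (68.8%), and CONS_180 higher than NADIR_180 at 8 (49.6%). Most GR regions of the liver were called in the same way, so these counts stand near the background or somewhat above it. The regions are the authors' merged peaks of these same libraries, and most listed peaks came from PEAK_140, CONS_140 and CONS_180. Higher values there than in VEH or NADIR_180 were thus favoured by how the regions were chosen, and the calls are a description. Between CONS_140 and CONS_180 limma called 0 of the 15 (0.0%), with 1 at an unadjusted p below 0.05, and between PEAK_140 and CONS_140 it called 0 (0.0502%), with 2. The time change under PULS minus that under CONS was called at 9 of the 15 (43.6%). The peak lists put a peak at 13 of the 15 regions in PEAK_140, 12 in CONS_140, 13 in CONS_180, 0 in NADIR_180 and 1 in VEH, out of 3210, 1723, 2428, 73 and 118 peaks. Since GR over all regions differed from VEH by a median of 4.17 at PEAK_140 and 0.841 at NADIR_180 (log2), direction rests on the scaling: 14 of the 15 regions were higher than VEH at PEAK_140 as deposited, 7 with each library centred on its median and 10 after quantile normalization, and the corresponding counts at CONS_140 were 15, 10 and 10.

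pSer2 Pol2 over the first 10 kb of each gene, or all of a shorter gene, gave 11 distinct regions for the 9 genes, since gene and transcript entries mostly repeat each other. The region with the highest mean is described for each gene. Got1 (chr1:263259762-263269762) read 9.0 and 8.75 in VEH, 10.92 and 10.48 in PEAK_140, 7.92 and 7.27 in NADIR_180, 10.71 and 10.48 in CONS_140, and 10.71 and 10.47 in CONS_180. Both NADIR_180 libraries were below both VEH libraries, and the other 6 CORT libraries were above them. Got1 occupancy differed from VEH by 1.83 ± 0.31 (log2 difference ± SE, n = 2 libraries a group) at PEAK_140 and by -1.28 ± 0.31 at NADIR_180. Under constant infusion it differed by 1.72 ± 0.31 at CONS_140 and 1.71 ± 0.31 at CONS_180. PEAK_140 was 3.11 ± 0.31 above NADIR_180.

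Etnppl (chr2:235738416-235748416) read 4.71 and 2.97 in VEH, 8.99 and 9.37 in PEAK_140, 6.56 and 6.03 in NADIR_180, 9.80 and 9.51 in CONS_140, and 9.22 and 9.24 in CONS_180. Its VEH libraries were low and apart from each other, and NADIR_180 lay between VEH and the other groups. The difference from VEH was 2.46 ± 0.49 at NADIR_180, 5.81 ± 0.49 at CONS_140 and 5.39 ± 0.49 at CONS_180, and PEAK_140 was 2.88 ± 0.49 above NADIR_180.

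Tat (chr19:41676229-41686229) read 12.12 in both VEH libraries, 12.80 and 12.56 in PEAK_140, 11.37 and 11.44 in NADIR_180, 12.93 and 12.73 in CONS_140, and 12.66 and 12.68 in CONS_180. The differences from VEH were small beside those of Got1, at 0.56 ± 0.20 for PEAK_140, -0.72 ± 0.20 for NADIR_180, 0.70 ± 0.20 for CONS_140 and 0.55 ± 0.20 for CONS_180. In Tat, as in Got1, NADIR_180 was the lowest group and lay below VEH, whereas in Etnppl VEH was the lowest.

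**Figure D2:**
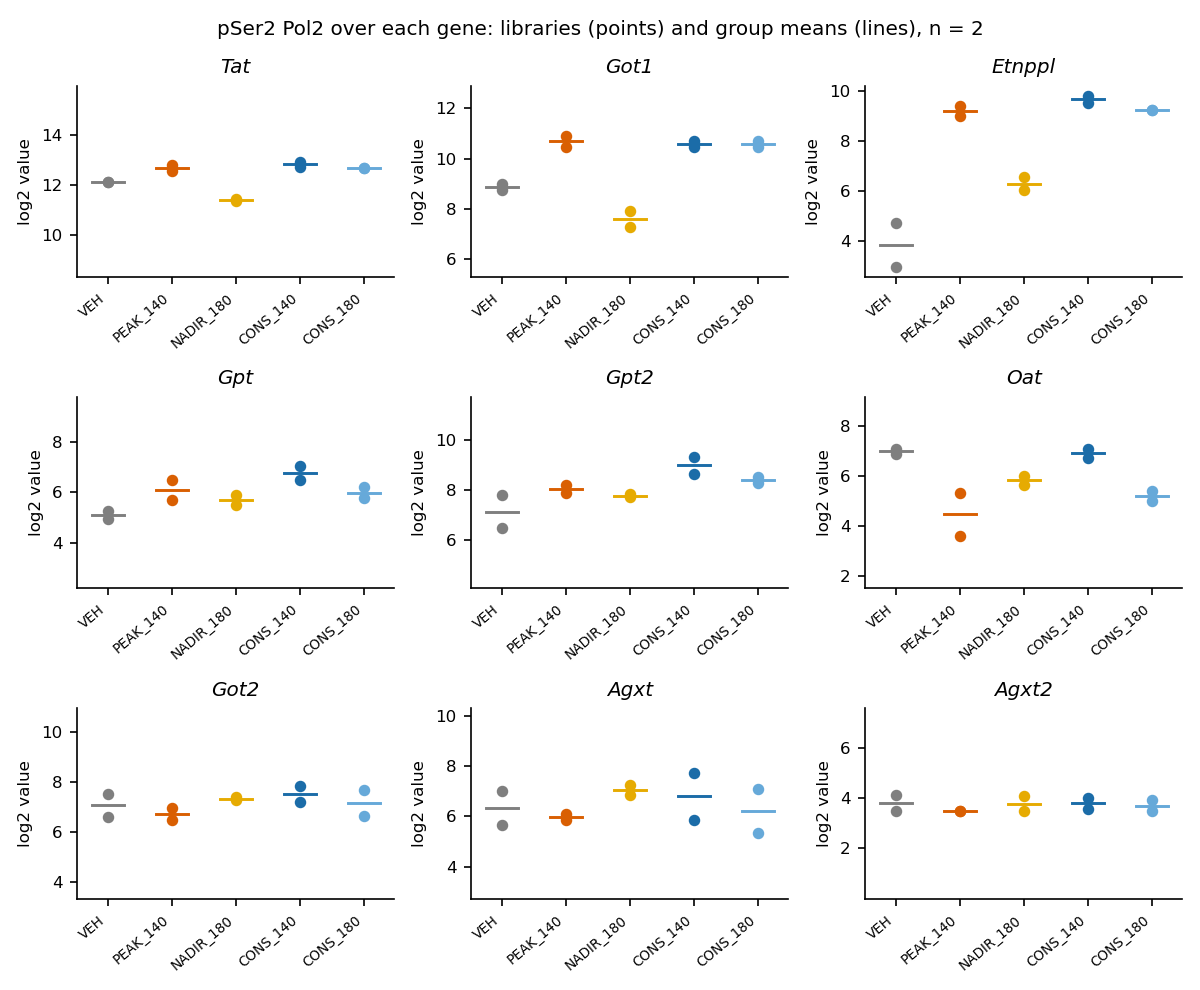
pSer2 Pol2 values (log2, as deposited; vertical axes of equal span but different centres) over each of the 9 genes, with points for the 2 libraries of a group and a line for their mean. NADIR_180 is the lowest group for Tat (11.37 and 11.44) and Got1 (7.92 and 7.27), VEH is the lowest for Etnppl (4.71 and 2.97), and PEAK_140 is the lowest for Oat (5.32 and 3.63).

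Among the 6 other genes, Oat (chr1:204572070-204582070) fell at PEAK_140. Its occupancy read 7.09 and 6.90 in VEH, 5.32 and 3.63 in PEAK_140, 5.65 and 6.01 in NADIR_180, 7.08 and 6.74 in CONS_140, and 5.41 and 5.03 in CONS_180. All 6 libraries of PEAK_140, NADIR_180 and CONS_180 were below the 4 libraries of VEH and CONS_140, and the PEAK_140 pair was far apart. The difference from VEH was -2.52 ± 0.48 at PEAK_140 (limma, adjusted p = 0.0327). It was -1.17 ± 0.48 at NADIR_180, -0.09 ± 0.48 at CONS_140 and -1.77 ± 0.48 at CONS_180 (limma, adjusted p = 0.9996, 0.9485 and 0.390). PEAK_140 minus CONS_140 was -2.43 ± 0.48 over the 10 libraries without a block (limma, adjusted p = 0.0900). In the 8 CORT libraries the same difference passed with the replicate number as a block (limma, adjusted p = 0.0436) and did not pass without it (limma, adjusted p = 0.2315). The Oat call at PEAK_140 was lost on leaving out any 1 of 9 of the 10 libraries, all but PEAK_140 replicate 1, with adjusted p up to 0.338.

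The alanine aminotransferases had their highest occupancy at CONS_140. Gpt (chr7:117759083-117761931) read 5.24 and 4.94 in VEH, 6.48 and 5.70 in PEAK_140, 5.89 and 5.51 in NADIR_180, 7.07 and 6.5 in CONS_140, and 6.21 and 5.76 in CONS_180. The difference of 1.70 ± 0.38 at CONS_140 did not pass (limma, adjusted p = 0.0934). Gpt2 (chr19:22616653-22626653) read 7.79 and 6.5 in VEH, 7.89 and 8.19 in PEAK_140, 7.85 and 7.72 in NADIR_180, 9.33 and 8.65 in CONS_140, and 8.53 and 8.28 in CONS_180. Over this region the CONS_140 difference was 1.85 ± 0.43 (limma, adjusted p = 0.107). Over the second Gpt2 region, whose VEH libraries read 7.50 and 6.92 and CONS_140 libraries 9.32 and 8.85, it was 1.88 ± 0.34 and passed (adjusted p = 0.0257), so that the Gpt2 call rests on which TSS is taken. With the block, in the 8 CORT libraries, PEAK_140 was also lower than CONS_140 over the second region, by -1.26 ± 0.24 (limma, adjusted p = 0.0492). Without the block the same libraries did not give this call.

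Got2, Agxt and Agxt2 were not called in any comparison. Got2 read 6.48 to 7.84 and Agxt 5.32 to 7.73 over the 10 libraries, and the Agxt replicates of CONS_140, at 7.73 and 5.87, and of CONS_180, at 7.10 and 5.32, were far apart. Agxt2 was near the bottom of the scale, at 3.48 to 4.13, with 5 of 10 libraries at the lowest value.

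Against VEH at PEAK_140, 2 of the 9 genes were called higher, Got1 and Etnppl (0.38% of 16568 genes), and 1 lower, Oat (0.634%). At CONS_140 3 were called higher, Got1, Etnppl and Gpt2 (0.646%), at CONS_180 1, Etnppl (0.181%), and at NADIR_180 limma called 0 (0.00604% in either direction), with 4 genes at an unadjusted p below 0.05. PEAK_140 was called higher than NADIR_180 in 3, Tat, Got1 and Etnppl (0.26%), and CONS_180 higher than NADIR_180 in 2, Tat and Got1 (0.169%). The change from peak to trough under PULS minus the change from 140 to 180 min under CONS was called higher in 1, Got1 (0.0362%), and was 2.46 ± 0.70 for Etnppl and 1.12 ± 0.28 for Tat. For Oat it was -3.04 ± 0.68 (limma, adjusted p = 0.204). The values of Etnppl at the pulse peak and of Got1 over time were among those known when the genes were chosen, so these counts are a description and nothing is read from their excess over the background. Between CONS_140 and CONS_180 limma called 0 (0.0%), with 1 gene at an unadjusted p below 0.05, and between PEAK_140 and CONS_140 it called 0 (0.0302%), with 2. With the replicate block, fitted on the 8 CORT libraries, the last count became 2, Oat and Gpt2, and 339 genes in all. All 10 libraries without a block gave 5 genes, and the same 8 libraries without it gave 0. For the difference of time changes 19 genes were called with the block and 11 in the 10 libraries, Got1 among them in both. The 8 CORT libraries without the block gave 5 genes, and Got1 was not among these. In fits of the 8 CORT libraries, with the block or without it, Tat was not called for PEAK_140 or CONS_180 against NADIR_180, and Etnppl was called for CONS_180 against NADIR_180.

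Most polymerase calls were lost in some of the fits that left out 1 library, often also a library outside the comparison, while the differences kept their direction. The Got1 call at PEAK_140 was lost without any 1 of the 10 libraries (log2 difference 1.61 to 2.05). At CONS_140 the Got1 call was lost in 7 of 10 such fits, kept without either PEAK_140 library or without CONS_140 replicate 2, and the Etnppl call was lost without CONS_140 replicate 1 (range 4.94 to 6.69). The Etnppl call at CONS_180 was lost without any 1 CONS_140 or CONS_180 library. For PEAK_140 against NADIR_180, the Got1 call was lost without replicate 1 of either group (range 2.79 to 3.44), the Etnppl call was lost in 8 fits and kept without either VEH library, and the Tat call was lost in 6. For CONS_180 against NADIR_180, the Got1 call was lost without either CONS_180 library and the Tat call without any VEH, NADIR_180 or CONS_180 library. Median differences over all regions tested ran from -0.299 to 0.167 in these comparisons (log2), and centring or quantile normalization turned no direction given for Tat, Got1, Etnppl or Oat. Quantile normalization made the Tat differences smaller, at 0.56 in place of 1.28 for PEAK_140 against NADIR_180, 0.41 in place of 1.27 for CONS_180 against NADIR_180 and 0.082 in place of 0.55 for CONS_180 against VEH, and neither Tat call was made. It also ended the Oat call at PEAK_140, with a difference of -2.29 (limma, adjusted p = 0.0855).

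RNA at 180 min was measured in separate libraries. The genes were chosen with earlier results of these data known, so the RNA p-values describe these libraries and do not support the choice. Etnppl RNA was at 44.74, 34.36 and 30.49 CPM in PULS_VEH and 255.0, 212.4 and 226.5 in PULS_CORT, and at 37.75, 52.46 and 43.98 in CONS_VEH and 615.6, 474.5 and 556.0 in CONS_CORT. The 3 constant-infusion libraries were all above the 3 pulsatile ones, and both were above every vehicle library. Etnppl RNA rose by 2.66 ± 0.17 (log2 difference ± SE, n = 3) under PULS (edgeR, adjusted p = 3.473e-07) and by 3.62 ± 0.17 under CONS (edgeR, adjusted p = 4.008e-09).

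Got1 RNA was at 120.1, 111.0 and 68.45 CPM in PULS_VEH and 369.6, 286.4 and 296.6 in PULS_CORT, and at 92.47, 85.08 and 128.5 in CONS_VEH and 791.5, 1058.0 and 976.7 in CONS_CORT. Here too the CONS_CORT libraries lay above the PULS_CORT libraries without overlap. The rise was 1.67 ± 0.20 under PULS (edgeR, adjusted p = 0.0001603) and 3.21 ± 0.21 under CONS (edgeR, adjusted p = 8.576e-08).

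Tat RNA was at 965.3, 331.0 and 486.0 CPM in PULS_VEH and 2065.0, 1262.0 and 1409.0 in PULS_CORT, and at 605.8, 718.1 and 953.8 in CONS_VEH and 2931.0, 2443.0 and 2680.0 in CONS_CORT. The first PULS_VEH library stood well above the other 2. Tat RNA rose by 1.41 ± 0.29 under PULS (edgeR, adjusted p = 0.01058) and by 1.82 ± 0.30 under CONS (edgeR, adjusted p = 0.0006314). Without PULS_CORT replicate 1 the PULS call was lost (edgeR, adjusted p = 0.0560).

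**Figure D3:**
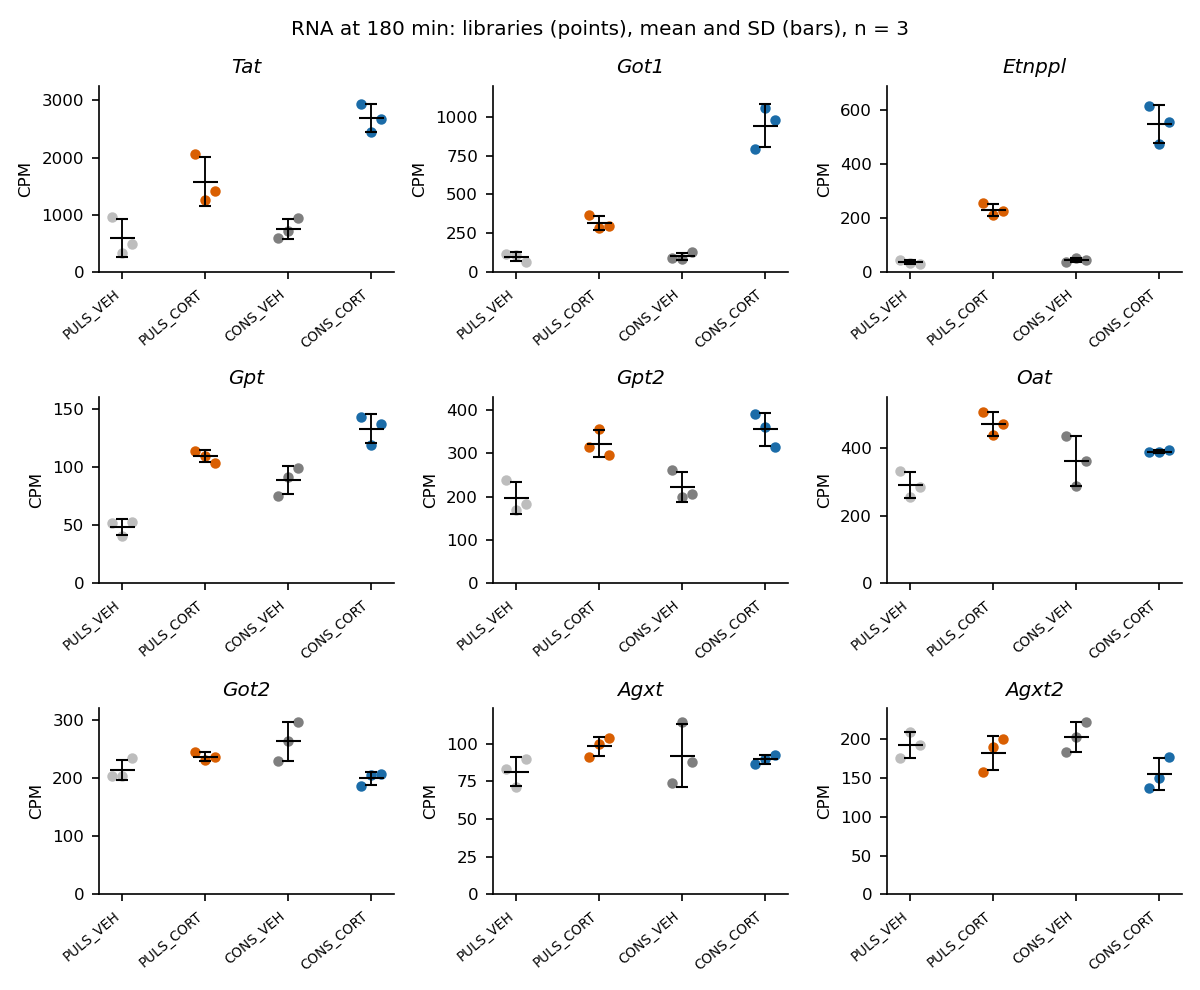
RNA of the 9 genes at 180 min in CPM (vertical axes from 0, scaled for each gene), with 1 point per library and black bars for the mean and SD of 3 libraries. CONS_CORT is above PULS_CORT in all 3 libraries for Got1 (791.5 to 1058.0 against 286.4 to 369.6) and Etnppl (474.5 to 615.6 against 212.4 to 255.0), and Oat is highest in PULS_CORT (436.5 to 506.2).

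Gpt RNA was at 51.99, 40.59 and 52.69 CPM in PULS_VEH and 114.3, 110.0 and 103.9 in PULS_CORT, a rise of 1.18 ± 0.14 (edgeR, adjusted p = 0.0001021). In CONS_VEH it was at 75.37, 91.69 and 99.36, already above PULS_VEH, and in CONS_CORT at 143.4, 118.8 and 137.4, a rise of 0.59 ± 0.13 (edgeR, adjusted p = 0.006519). That value sits at the 1.5-fold threshold, and the call was lost without CONS_CORT replicate 1, CONS_CORT replicate 3 or CONS_VEH replicate 1 (log2 difference 0.478 to 0.676 over the 12 fits). Gpt2 RNA rose by about the same under both patterns, from 169.2 to 237.8 CPM in PULS_VEH to 295.1 to 355.6 in PULS_CORT and from 198.4 to 260.7 in CONS_VEH to 314.0 to 390.6 in CONS_CORT. The differences were 0.71 ± 0.15 under PULS (edgeR, adjusted p = 0.01108), lost without PULS_CORT replicate 2 or PULS_VEH replicate 2 (adjusted p up to 0.0601), and 0.68 ± 0.15 under CONS (adjusted p = 0.005825).

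Oat RNA was at 330.8, 255.1 and 284.4 CPM in PULS_VEH and 506.2, 436.5 and 470.1 in PULS_CORT, a rise of 0.70 ± 0.14 (edgeR, adjusted p = 0.009444). Under CONS it was at 435.0, 286.1 and 361.6 CPM in CONS_VEH and 386.3, 386.4 and 393.9 in CONS_CORT, a difference of 0.11 ± 0.14 that did not pass (edgeR, adjusted p = 0.7121). Oat RNA was thus called higher in the pattern in which its polymerase occupancy was called lower at the pulse peak, an earlier time point.

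The mitochondrial Got2 and the glyoxylate enzymes were not called under either pattern. Got2 RNA was at 213.7 ± 17.2 CPM (SD, n = 3) in PULS_VEH and 236.9 ± 7.07 in PULS_CORT, and at 263.0 ± 33.7 in CONS_VEH and 199.4 ± 11.4 in CONS_CORT. The last difference, -0.40 ± 0.12, had an adjusted p of 0.03299 (edgeR) but was below 1.5-fold. Agxt RNA differed by 0.27 ± 0.14 under PULS and -0.04 ± 0.14 under CONS, and Agxt2 RNA by -0.07 ± 0.13 and -0.39 ± 0.13 (edgeR, adjusted p = 0.3151, 0.9143, 0.8172 and 0.06393).

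In all, 6 of the 9 RNAs were called higher under PULS (1.79% of 14092 genes) and 5 under CONS (4.45%), and 0 were called lower by edgeR in either (2.44% and 4.75%), with 7 genes at an unadjusted p below 0.05 under CONS, among them Got2 and Agxt2 with lower values. Tat, Got1, Etnppl, Gpt and Gpt2 were called under both patterns, and Oat under PULS. The genes were chosen with earlier results of these data known, so these RNA counts are a description and nothing is read from their excess over the background. The 2 CORT groups differed in 2 of the 9 RNAs (0.617%). CONS_CORT was higher than PULS_CORT by 1.57 ± 0.20 for Got1 (edgeR, adjusted p = 0.001478) and by 1.25 ± 0.15 for Etnppl (edgeR, adjusted p = 0.001454), and both calls were kept without each of the 12 libraries in turn. The difference for Tat was 0.77 ± 0.29 and did not pass (edgeR, adjusted p = 0.3064).

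Whether the response to CORT itself differed between the patterns was tested as the CONS change minus the PULS change. edgeR called 0 of the 9 (0.0284% of genes in either direction), with 5 at an unadjusted p below 0.05, and DESeq2 called 2, Got1 and Etnppl. For Got1 the difference of responses was 1.54 ± 0.28 (edgeR, adjusted p = 0.0580, and DESeq2, adjusted p = 0.000168), with a range of 0.000168 to 0.177 over the alternatives. For Etnppl it was 0.96 ± 0.22 (edgeR, adjusted p = 0.0887, and DESeq2, adjusted p = 0.005343), with a range of 0.005343 to 0.231. Oat and Gpt went the other way at -0.59 ± 0.20 and -0.59 ± 0.19, and Got2 at -0.55 ± 0.16 (edgeR, adjusted p = 0.2193, 0.1858 and 0.1621). The Oat response was therefore not shown to differ between the patterns. Between the vehicle groups edgeR called 0 of the 9 (0.0%), with 3 at an unadjusted p below 0.05, and DESeq2 called Gpt, whose difference, PULS_VEH minus CONS_VEH, was -0.87 ± 0.14 (edgeR, adjusted p = 0.1079, and DESeq2, adjusted p = 1.795e-05).

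**Figure D4:**
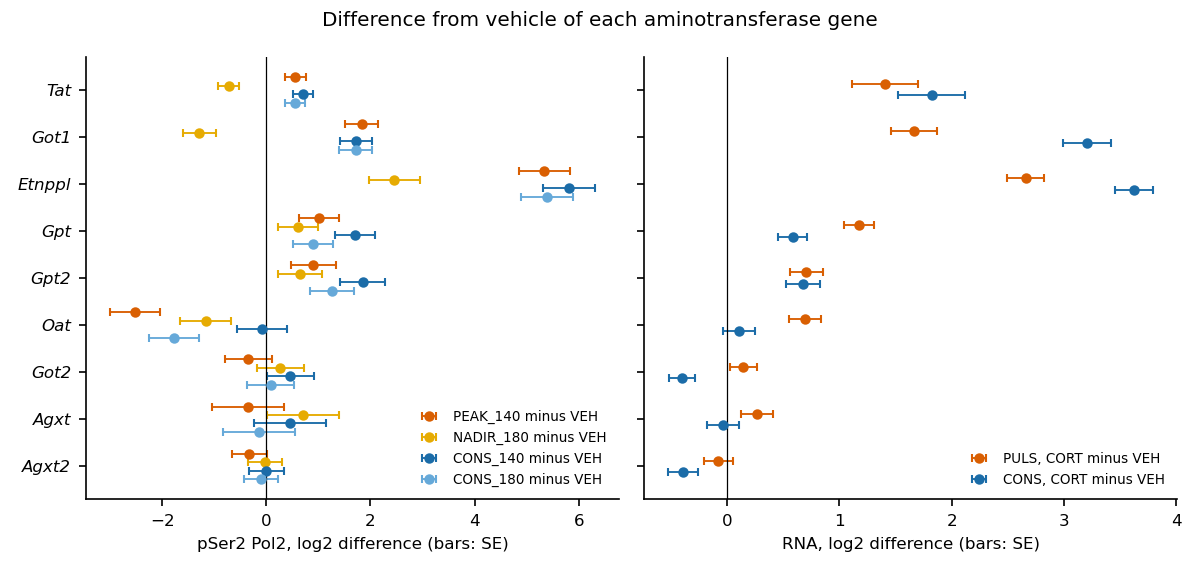
Log2 difference from vehicle for each gene, for pSer2 Pol2 on the left (4 CORT groups against VEH, 2 libraries each) and for RNA on the right (PULS and CONS, 3 libraries each), with bars for 1 SE. NADIR_180 falls to the left of 0 for Tat (-0.72) and Got1 (-1.28) and to the right for Etnppl (2.46), none of them called by limma, and Oat lies at -2.52 at PEAK_140 while its RNA lies at 0.70 under PULS.

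Set side by side, Tat, Got1, Etnppl, Gpt and Gpt2 each had at least 1 GR region called higher than VEH at PEAK_140 and RNA called under both patterns. Got2 had 2 GR regions called at PEAK_140 and no RNA call. Agxt and Agxt2 had no GR region within 50 kb and no RNA call, and Oat had an RNA call under PULS with no GR region within that distance. Of all GR regions, 78.6% were called higher than VEH at PEAK_140. The genes were chosen with earlier results known, and the share of all genes with both kinds of call was not counted. Nothing is therefore read from how GR regions and RNA calls go together here. At 180 min under PULS, Got1 and Tat had polymerase values below VEH while their RNA was called higher than PULS_VEH, and under CONS both their polymerase values and their RNA were above vehicle. For polymerase, limma called neither gene against VEH at NADIR_180 or CONS_180, so a fall below vehicle is not shown. Whether ChIP and RNA libraries at 180 min shared animals is not given in the sources used here, and no test was made across them.

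Among the genes whose RNA was most like that of Tat across the 12 libraries were Fmo4 (r = 0.956) and Pck1 (0.954), by Pearson's r of log2 CPM. Pck1 is a gluconeogenic enzyme. Got1 was most like the amino acid transporter gene Slc38a2 (0.982), the mitochondrial ornithine carrier gene Slc25a15 (0.976) and Nudt4 (0.973), and Etnppl most like Mat1a (0.986), which makes S-adenosylmethionine, Rasgef1b (0.984) and Edem1 (0.983). Among the members, r was 0.970 between Got1 and Etnppl, 0.936 between Tat and Etnppl and 0.916 between Tat and Got1, and it was -0.485 between Got1 and Got2. These values describe 12 libraries that fall into CORT and VEH groups, and no p is given.

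Around these enzymes, 7 lists of partner genes held 48 names, of which 39 were measured in RNA and 40 in the polymerase table, and they were put together with earlier results known. Glud1, the mitochondrial glutamate dehydrogenase that works with the aminotransferases, rose by 0.76 ± 0.12 under PULS (edgeR, adjusted p = 0.00164), 1 of 4 genes of glutamate and ammonia handling. Odc1, which makes putrescine from ornithine, rose by 0.75 ± 0.17 under PULS (edgeR, adjusted p = 0.0197), 1 of 6 measured genes of ornithine and proline metabolism. Of all genes, 1.79% were called higher under PULS. From CONS_VEH to CONS_CORT mean Glud1 RNA went from 588.1 to 838.4 CPM and Odc1 from 35.18 to 42.24, and neither was called. edgeR called neither for the difference of responses, so a response particular to PULS is not shown. Sgpl1, whose product makes the phosphoethanolamine that Etnppl splits, fell by 0.73 on the log2 scale under PULS and by 1.24 under CONS (edgeR, adjusted p = 0.00164 and 3.036e-06), from 112.1 ± 8.71 to 67.71 ± 3.94 CPM and from 168.4 ± 7.08 to 71.38 ± 8.92 CPM (SD, n = 3), 1 of 7 measured ethanolamine phospholipid genes. Its CORT means were thus close, and its vehicle means were apart. edgeR called Sgpl1 neither for the difference of responses nor between the vehicle groups, so a larger fall under CONS is not shown. DESeq2 called 1 gene of that list between the vehicle groups. Of 9 other aminotransferases, 5 partners of the malate-aspartate shuttle and 3 genes of glyoxylate handling, 0 were called in RNA by edgeR or by DESeq2 under either pattern, with 9 of the 17 genes at an unadjusted p below 0.05 under PULS and 6 under CONS. List medians were -0.118 to 0.379 under PULS and -0.452 to 0.177 under CONS, beside medians over all genes of -0.0133 and -0.00993. For pSer2 Pol2, limma called 0 of the 40 against VEH in each of the 4 CORT groups, with an unadjusted p below 0.05 for 8 genes in PEAK_140 and 3 in NADIR_180, and for 9 in CONS_140 and 3 in CONS_180.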

How the data were processed

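Liver chromatin and RNA were measured as described in the report. Per the labels and the study's methods, ChIP reads of 50 bases were trimmed (Trimmomatic 0.36), aligned to rn6 with bowtie2 and freed of duplicates (SAMtools), GR peaks were called with HOMER 4.9.1 over 1% input at an irreproducible discovery rate of 0.01, and input tags were subtracted. The authors deposited ChIP values per region and library on a log2 scale, which the values show to be shrunken and normalised (how GR was scaled between libraries is described in more than one way), and peak positions as lists. They deposited RNA as raw read counts per gene (featureCounts 1.6.2, Ensembl annotation of Rnor_6.0). The tables' columns of the authors' own fold changes and p-values were not used.

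The members and gene lists were chosen with earlier results of these data known. All 9 members are named, with list genes called in RNA or pSer2 Pol2 and the 3 genes most like Tat, Got1 and Etnppl. One list gene that this rule names is not reported here. ChIP values were tested with limma 3.58.1 (trended empirical Bayes, all 10 libraries of an assay, 38315 pSer2 Pol2 regions of 16568 genes with tags, 3981 GR regions). RNA counts were tested with edgeR 4.0.16 (quasi-likelihood, TMM, 14092 genes whose reads summed to more than 10) and, as an alternative, DESeq2 1.42.0, in R 4.3.3. P-values were adjusted by the Benjamini-Hochberg method over all features, and calls needed an adjusted p below 0.05 and a change over 1.5-fold. A gene with several polymerase regions counted as called if any region was. GR regions were tied to a gene by the distance of their centre to any TSS, and peaks by an overlap of at least 1 base. Symbols were in the deposited tables for 22747 of 22929 counted genes. The scripts were tested on simulated data. For RNA, nothing in the labels says that libraries are separate animals, so that p-values measure the spread between these libraries.

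Same-numbered pSer2 Pol2 libraries deviated together (r of replicate differences 0.155 to 0.553 over 6 pairs of groups), and the series describes the ChIP as separate independent experiments, so the replicate number was taken to pair them, and blocked values stand where they change a call. GR (r = -0.027 to 0.072) and RNA (r = -0.049 to 0.081) were not paired in this way.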

Additional observations from a re-analysis of the deposited data

Results flagged for a closer look

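The following values were picked out because the change from peak to trough under PULS (PEAK_140 minus NADIR_180) differed from the change over the same clock times under CONS (CONS_140 minus CONS_180), by limma's test of that difference over all features. For pSer2 Pol2 it was Got1, at 3.10 ± 0.45 (log2, n = 2 libraries in each of 4 groups), beside 0.0362% of genes called higher. The change of Got1 occupancy over time was known when the gene was chosen, so this value is a description and supports nothing. The call was lost on leaving out any 1 of 9 of the 10 libraries, all but CONS_140 replicate 2, and in the 8 CORT libraries without a block.

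For GR, 9 of the 15 regions were picked out, beside 43.6% of all regions called higher. The regions were merged from peaks called mostly outside NADIR_180, so a positive difference was favoured by their choice and is a description. The differences were 6.05 (Tat, 2488 bases upstream), 4.75 (Tat, 7273 upstream), 2.77 (Tat, 5434 upstream), 2.39 (Got1 promoter), 3.77 (Got2, 2218 downstream), 4.61 (Gpt promoter), 3.31 (Etnppl, intron 12), 1.30 (Etnppl, 42951 downstream) and 4.67 (Etnppl, 36876 downstream). With each library centred on its median 5 of the 9 kept a positive sign, since 4 turned negative, and under that scaling and under quantile normalization 0 of the 15 regions were called by limma. The median over all GR regions was 3.11 on the deposited scale.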

How the results depend on the processing

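Calls for these genes rest on few libraries, and polymerase calls most of all. GR counts rest on scaling. With libraries centred on their medians, 2 regions were called against VEH in PEAK_140, both lower, 0 in NADIR_180, 3 in CONS_140 and 3 in CONS_180, in each case 2 higher and 1 lower. Centring gave 1, higher, for PEAK_140 against NADIR_180, 0 for CONS_180 against NADIR_180 and 0 for the difference of time changes. After quantile normalization 6 were called in PEAK_140 (5 higher and 1 lower), 0 in NADIR_180, 7 in CONS_140 and 7 in CONS_180 (6 higher and 1 lower in each), 4 for PEAK_140 (2 higher and 2 lower) and 4 for CONS_180 (3 higher and 1 lower) against NADIR_180, and 0 for the difference. With only the 4 libraries compared, 0 were called at NADIR_180. Signs turned for that difference at the Tat region 5434 bases upstream (-0.62), the Got1 promoter (-0.998) and Etnppl in intron 12 (-0.081) and at 42951 bases (-2.09) when centred, and at Got2, 2218 bases downstream (-0.48), and Etnppl at 42951 bases (-1.12) after quantile normalization. The causes were not tested.

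For pSer2 Pol2, fits on the 4 libraries compared, which leave fewer samples, called 0 members against VEH at PEAK_140, CONS_140 and CONS_180 and 0 for PEAK_140 and CONS_180 against NADIR_180. Without the filter on low values 0 were called at PEAK_140, CONS_140, CONS_180, for CONS_180 against NADIR_180 and for the difference of time changes. Centring gave 2 at CONS_180, 1 for PEAK_140 against CONS_140 and 2 for the difference, quantile normalization 3 at CONS_180, and the regions above the median level 1 at NADIR_180, 2 at CONS_180, 1 for PEAK_140 against CONS_140 and 2 for the difference. Gpt, PEAK_140 against CONS_140, turned to 0.023 after quantile normalization. The replicate block gave 2 for PEAK_140 against CONS_140, and the same 8 CORT libraries without the block, added after seeing the data, gave 0 for the difference. No paired analysis was possible for the VEH comparisons because the VEH libraries carry no replicate number. For RNA, where numbers do not pair, the block called 6 members under PULS and 4 under CONS (Gpt lost), 2 between the CORT groups, and 0 for the difference of responses and between vehicles. For GR, not paired either, it called 10, 0, 0, 8 and 7 regions for PEAK_140 against NADIR_180, CONS_140 against CONS_180, PEAK_140 against CONS_140, CONS_180 against NADIR_180 and the difference.

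For RNA, DESeq2 and edgeR with no filter on low counts each called 2 for the difference of responses (Got1 and Etnppl under DESeq2) and 1 between vehicles. The Oat difference under CONS ran from -0.035 (without CONS_VEH replicate 2) to 0.26, and the Tat difference of responses from -0.13 (without PULS_VEH replicate 1) to 0.70, leaving out 1 library at a time.

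Leaving out 1 library at a time, members called for pSer2 Pol2 ran from 1 to 2 in PEAK_140, 0 to 0 in NADIR_180, 0 to 5 in CONS_140 and 0 to 1 in CONS_180 against VEH, 0 to 2 for PEAK_140 against NADIR_180, 0 to 0 for CONS_140 against CONS_180, 0 to 2 for PEAK_140 against CONS_140, 0 to 2 for CONS_180 against NADIR_180 and 0 to 3 for the difference. GR regions called ran, in that order, from 12 to 14, 2 to 6, 11 to 13, 11 to 13, 8 to 11, 0 to 0, 0 to 0, 7 to 9 and 4 to 8. RNA counts ran from 5 to 6 under PULS, 4 to 5 under CONS, 0 to 2 for the difference of responses, 2 to 2 between CORT groups and 0 to 1 between vehicles. Over all settings, 332 counts stayed within 1.5 times the count reported and 86 did not, and of single values 987 kept direction and side of the threshold, 140 lost the call, 42 gained one and 9 changed sign.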
